A study of Mus musculus with 12 samples.

Results

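The collagen genes were taken as every gene whose symbol is Col, a collagen type number, the letter a and a chain number. This rule gave 44 of the 32285 features measured in mouse aorta by single-cell RNA sequencing, and it used no measured value. By textbook type, 11 members encode fibrillar collagens, 8 encode basement membrane collagens and 25 encode other types, among them 6 beaded filament, 9 fibril-associated, 3 short-chain network and 4 transmembrane collagens. A level of at least 50 CPM (unique molecular identifiers, UMIs, of a gene in every 1000000 UMIs of a cell class) as the mean of the 4 libraries was reached by 17 members in fibroblast-like, smooth muscle-like or endothelial-like cells. A further 7 members reached 50 CPM in 1 library of some class of at least 50 cells. The remaining 20 are described by counts.

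Collagens are proteins of 3 chains wound into a triple helix, and they give the arterial wall its tensile strength. Types I and III form the fibrils of the adventitia and media, with type V as a minor chain that sets fibril diameter. Type IV forms the sheet under the endothelium and around each smooth muscle cell, where types XV and XVIII join it to the surrounding matrix. Type VI forms beaded filaments near cells, types XII, XIV and XVI attach to fibrils, and type VIII forms a short-chain lattice in vessels. In atherosclerosis, collagen is the main component of the fibrous cap.

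The mice were male C57BL/6J animals of genotype ApoE-/-, 8 weeks old at the start, and each of the 4 gene expression libraries came from 6 pooled aortas. The untreated group received a normal diet and saline. The AS (atherosclerosis) group received a diet of 1% cholesterol and 10% fat with saline for 24 weeks. Both MTZ groups had that diet and 25 mg/kg methazolamide (MTZ, a carbonic anhydrase inhibitor, spelled methoxazolamide in the sample labels) by gavage every other day, for the last 12 weeks (MTZ-treated) or for all 24 weeks (MTZ-preventive). The comparisons address what the diet and each schedule of MTZ go with, but with 1 library per group no difference between groups could be tested. The intervals given are exact 95% limits for counting error alone, and the spread between mice or libraries is unknown.

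After filtering and removal of called doublets there were 11121, 2160, 6796 and 14186 cells in the untreated, AS, MTZ-treated and MTZ-preventive libraries, with 27644859, 3781256, 14728038 and 31600954 UMIs. Values below keep that order. Apoe, the deleted gene, stood at 726, 11.1, 12.1 and 8.35 CPM, so the library labelled untreated went against its genotype label, and any difference from it sets Apoe status beside diet, which cannot be told apart. Pairs of libraries shared 24 to 240 cell barcodes. The AS library was the smallest, and 11 neutrophil marker genes summed to 781 CPM in its fibroblast-like cells, 1742 CPM in its smooth muscle-like cells and 1092 CPM in its endothelial-like cells, against 10.3 to 88.3 CPM in the same classes of the other libraries. Of those 11 markers, 5, 4 and 1 were at 0 in these 3 AS classes. Cell classes were named from 3 or more marker genes, none of them a collagen. The leading genes of each class, such as Vwf and Cdh5 in endothelial-like cells, included markers used to name it. Their fit to the names was thus built in and does not test the names.

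Fibroblast-like cells held most fibrillar collagen UMIs in 3 of the 4 libraries. Their share of all fibrillar collagen UMIs was 75.8%, 48.2%, 76.6% and 61.6%, from 1456, 248, 1728 and 3311 cells. Smooth muscle-like cells held 10.9%, 4.12%, 7.56% and 14.3% of fibrillar UMIs but 49.0%, 10.4%, 41.4% and 35.5% of basement membrane collagen UMIs. Endothelial-like cells held 12.1%, 27.4%, 18.7% and 14.2% of the basement membrane UMIs. In the AS library, cells that met no class held 29.6% of fibrillar and 31.3% of basement membrane UMIs. Macrophage-like cells of AS held a further 7.56% of its fibrillar UMIs, with Col1a1 at 1023 CPM and Col3a1 at 1389 CPM, where the same class ranged from 73.3 to 240 CPM and from 86.6 to 160 CPM in the other libraries. AS neutrophil-like cells held Col1a1 at 314 CPM and Col3a1 at 430 CPM. The part of such background in the macrophage-like values was not tested.

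**Figure D1:**
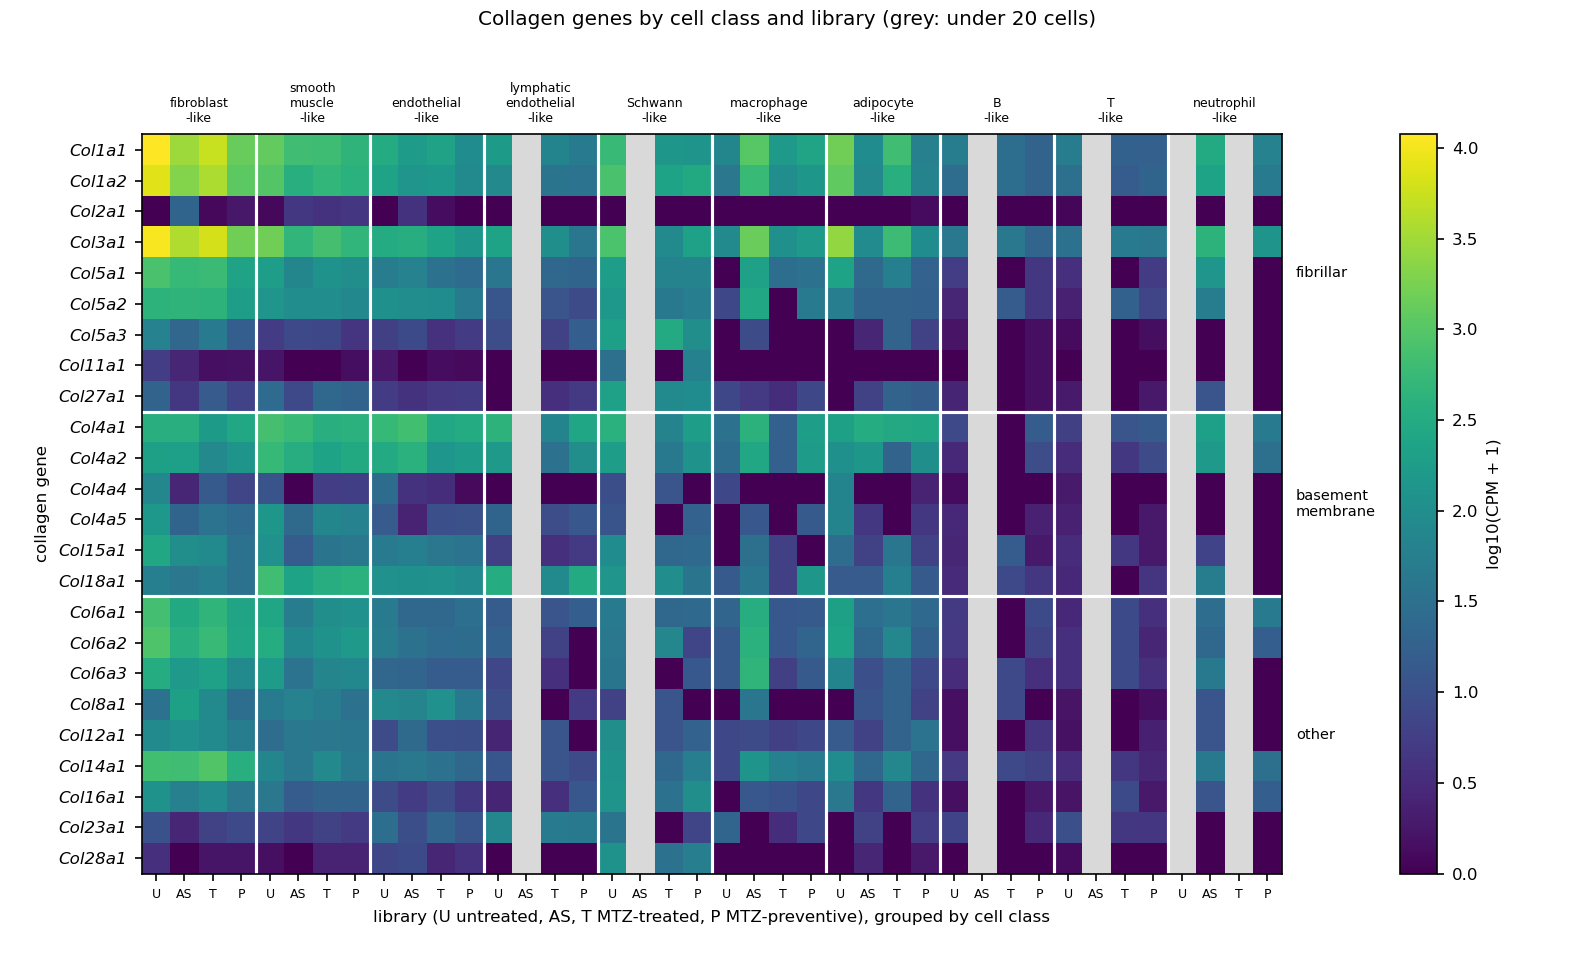
Levels of the 24 described collagen genes, as log10(CPM + 1), in 10 cell classes, each with 4 columns for the libraries (U untreated, AS, T MTZ-treated, P MTZ-preventive); grey marks a class with under 20 cells in that library. Col1a1, Col1a2 and Col3a1 are highest in fibroblast-like cells and Col18a1 in smooth muscle-like cells of all 4 libraries, and Col27a1 and Col28a1 in Schwann-like cells where that class is shown.

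Over all cells, collagens took 7410, 4579, 8041 and 2693 CPM. Such a level cannot separate fewer collagen-making cells from less collagen RNA in each, so the classes were read one at a time. Within fibroblast-like cells, the 11 fibrillar genes together stood at 31663 CPM in the library labelled untreated, 9947 CPM in AS, 16548 CPM in MTZ-treated and 4416 CPM in MTZ-preventive. AS was 3.18-fold lower than untreated (log2 ratio -1.67, limits -1.71 to -1.63), MTZ-treated was 1.66-fold higher than AS (0.73, 0.70 to 0.77) and MTZ-preventive was 2.25-fold lower than AS (-1.17, -1.21 to -1.13). The last 2 comparisons share the AS library, so an error in it moves both. The last also depended on the removal of called doublets. With them kept, AS stood at 10036 CPM and MTZ-preventive at 7358 CPM, short of 2-fold apart.

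The level of the typical cell did not follow the sum in every comparison. Fibrillar collagen took a median of 1.47%, 0.557%, 0.628% and 0.199% of a fibroblast-like cell's UMIs. AS and MTZ-treated lay closer at this median than in the sum, and the other libraries stood apart in both. Cells with no fibrillar UMI made up 0.206%, 6.85%, 2.43% and 12.02% of the class. The level was also uneven within each library, since the tenth of cells with the highest share held 54.6%, 56.0%, 64.5% and 57.9% of the class's fibrillar UMIs.

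**Figure D2:**
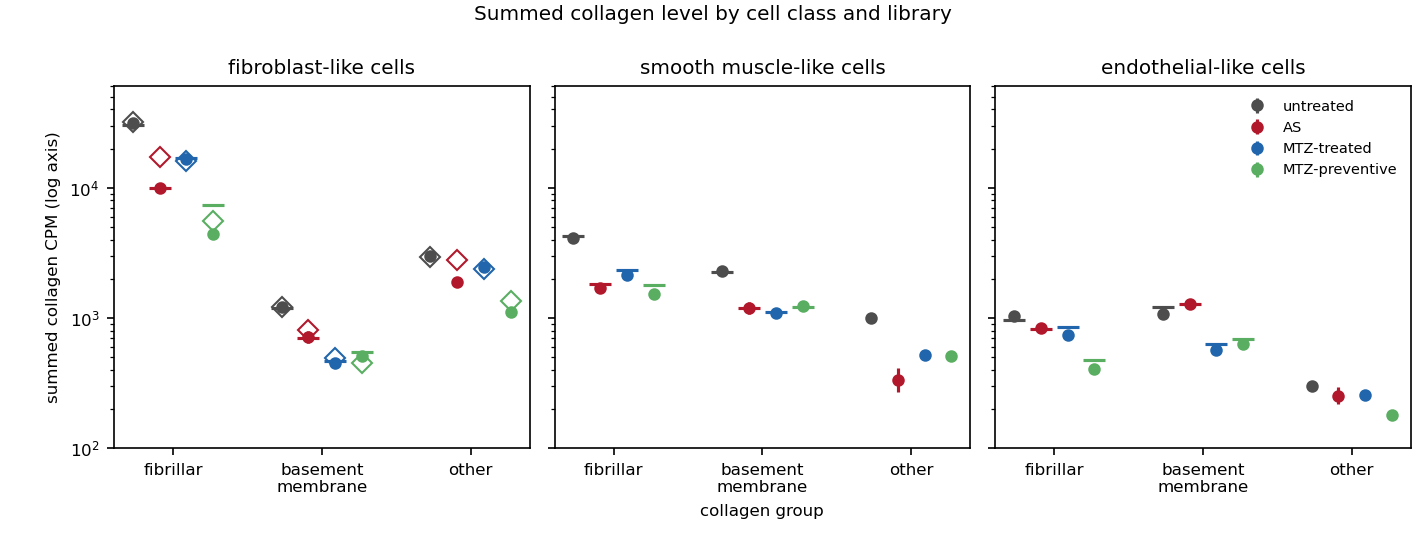
Summed CPM (log axis) of fibrillar, basement membrane and other collagens in 3 cell classes of the 4 libraries, with exact 95% limits for counting; open diamonds leave out fibroblast-like cells with Prg4 or Cxcl13, and horizontal ticks keep called doublets. Fibrillar collagen of fibroblast-like cells spans 4416 to 31663 CPM, and keeping doublets lifts its MTZ-preventive value to 7358 CPM.

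The 3 main fibrillar chains showed this pattern together. Col1a1, the alpha 1 chain of type I (chr11:94936224-94953042, genome build GRCm38.p6), stood at 11878, 2986, 5352 and 1321 CPM. Col1a2, its partner chain (chr6:4505618-4541543), stood at 7688, 2064, 3723 and 1123 CPM. Col3a1, whose single chain makes type III (chr1:45311538-45349706), stood at 10757, 3863, 6390 and 1545 CPM. Each was highest in the library labelled untreated and lowest in MTZ-preventive.

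Against untreated, AS was 3.98-fold lower for Col1a1 (log2 -1.99, limits -2.06 to -1.92), 3.72-fold lower for Col1a2 and 2.78-fold lower for Col3a1. Against AS, MTZ-treated was 1.79-fold, 1.80-fold and 1.65-fold higher for these chains, each short of 2-fold. MTZ-preventive was 2.26-fold lower for Col1a1, 1.84-fold lower for Col1a2 and 2.50-fold lower for Col3a1. Of the type V chains, Col5a1 and Col5a2 differed less between the first pair of libraries. Col5a1 was at 817, 532, 589 and 221 CPM, and Col5a2 at 434, 454, 433 and 182 CPM. With all cells of the class, Col5a2 was thus level in 3 libraries and 2.49-fold lower in MTZ-preventive than in AS. Without cells with Prg4 or Cxcl13, Col5a2 stood at 431, 701, 417 and 200 CPM. It was then higher in AS than in untreated (log2 0.70, limits 0.44 to 0.95). MTZ-treated was lower than AS there (-0.75, -0.9995 to -0.49). Over 9 settings the log2 ratio of AS to untreated for Col5a2 ran from -0.08 to 0.95. Without the same cells, Col5a1 had log2 ratios of 0.21 for AS to untreated (limits -0.01 to 0.42) and -0.67 for MTZ-treated to AS. For Col5a1 the ratio of AS to untreated ran from -0.73 to 0.21 over 9 settings. With all cells again, Col5a3, the third type V chain, was under the mean level at 63.8, 21.3, 44.6 and 15.4 CPM. Its log2 ratio was -1.59 for AS to untreated, from 12 UMIs in AS.

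Chains of 1 protein kept more even proportions than their levels did. UMIs of Col1a2 per UMI of Col1a1 in fibroblast-like cells were 0.647 (limits 0.638 to 0.657), 0.691 (0.641 to 0.745), 0.696 (0.682 to 0.710) and 0.850 (0.825 to 0.875). The ratio of Col3a1 to Col1a1 was 0.906, 1.29, 1.19 and 1.17. Col3a1 RNA was thus higher relative to Col1a1 RNA in AS, MTZ-treated and MTZ-preventive than in the library labelled untreated. The ratio of Col5a2 to Col1a1 moved further, at 0.0366, 0.152, 0.0809 and 0.138. Each UMI counts 1 molecule by its 5′ end, so transcript length does not enter, although capture may still differ between genes.

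The share of fibroblast-like cells with a Col1a1 UMI, among 1000 UMIs drawn from each cell, was 92.9%, 68.5%, 73.9% and 45.7%, and without drawing it was 96.0%, 76.2%, 83.8% and 59.0%. For Col3a1 the drawn shares were 93.6%, 72.2%, 74.3% and 48.1%. B-like and T-like cells, which do not make fibrillar collagen, had Col1a1 in 2.93% of cells in untreated, 2.50% in MTZ-treated and 1.72% in MTZ-preventive, at median depths of 2139, 1516 and 1862 UMIs against 1622, 1626.5 and 1600 in fibroblast-like cells. AS held 18 such cells, none with a Col1a1 UMI among those drawn, which allows a share of up to 16.7%. Its 112 neutrophil-like cells (median 1240.5 UMIs, against 1318.5 in its fibroblast-like cells) had Col1a1 in 28 cells (25%), and 45 neutrophil-like cells of MTZ-preventive (median 1217 UMIs) had it in 6.67%.

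**Figure D3:**
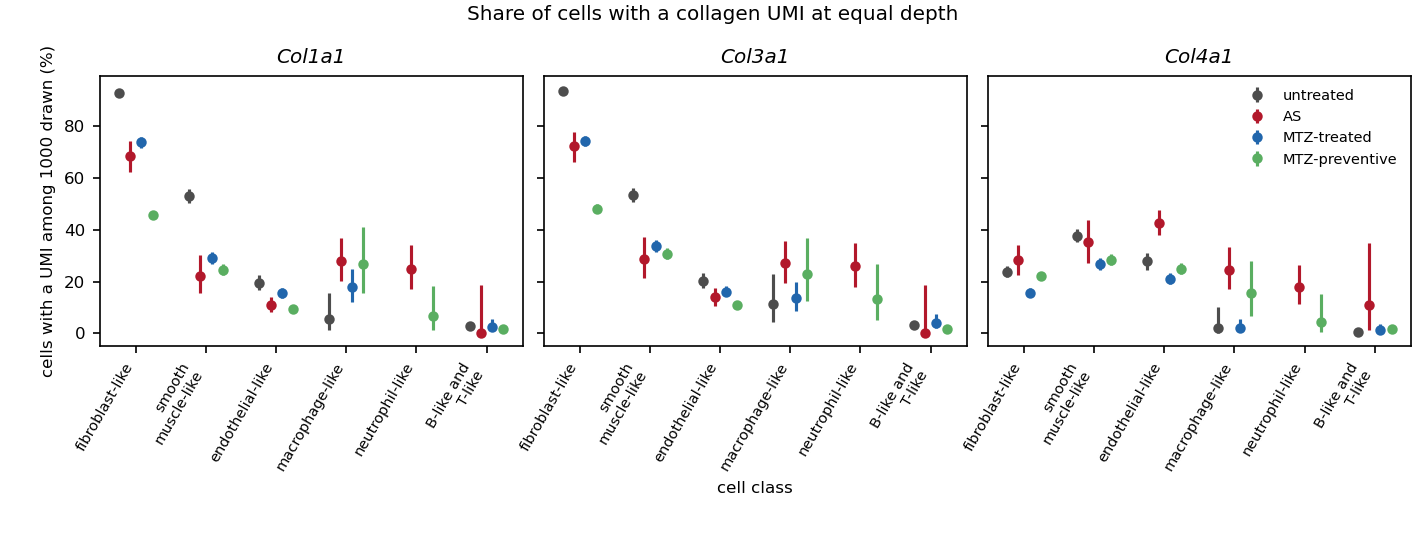
Percent of cells with at least 1 UMI of Col1a1, Col3a1 or Col4a1 among 1000 UMIs drawn per cell, in 6 cell classes of the 4 libraries, with exact binomial 95% limits. Fibroblast-like cells lie between 45.7% and 92.9% for Col1a1, while B-like and T-like cells lie at or below 2.93% and the AS neutrophil-like cells at 25%.

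The bases before the annotated starts of 2 fibrillar genes that differed together and of Col8a1 are given from RefSeq (GRCm38.p6), with the letters searched for in capitals. Col8a1 differed the other way between AS and untreated. They were the CCAAT box, the GC box GGGCGG and the TATA box TATAAA, each searched on both strands, and the matches shown do not overlap each other.
Col1a2, chr6:4505368-4505617, plus strand: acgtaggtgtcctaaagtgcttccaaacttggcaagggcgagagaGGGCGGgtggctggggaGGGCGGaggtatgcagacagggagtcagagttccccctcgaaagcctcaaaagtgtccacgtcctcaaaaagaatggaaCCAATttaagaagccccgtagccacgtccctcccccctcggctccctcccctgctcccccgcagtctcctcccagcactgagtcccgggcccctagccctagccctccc
Col3a1, chr1:45311288-45311537, plus strand: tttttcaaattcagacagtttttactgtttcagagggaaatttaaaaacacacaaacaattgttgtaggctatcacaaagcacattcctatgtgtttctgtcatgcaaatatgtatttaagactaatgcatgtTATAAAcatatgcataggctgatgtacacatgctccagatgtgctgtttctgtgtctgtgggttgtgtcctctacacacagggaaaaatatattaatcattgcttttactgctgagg
Col8a1, chr16:57754738-57754987, minus strand: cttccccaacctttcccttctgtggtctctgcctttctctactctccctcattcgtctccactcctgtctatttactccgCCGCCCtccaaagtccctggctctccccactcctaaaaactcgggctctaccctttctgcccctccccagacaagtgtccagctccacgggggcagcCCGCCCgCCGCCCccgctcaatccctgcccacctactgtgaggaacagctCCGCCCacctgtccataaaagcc
Col1a2 carries CCAAT 109 bases and GGGCGG 188 and 205 bases before its start, Col3a1 carries TATAAA 117 bases before its start, and Col8a1 carries GGGCGG 4 times on its reverse strand, read here as CCGCCC, from 23 to 170 bases before its start. CCAAT lay in 12 of the 35 collagen promoters in the table and in 34.5% of 27025 windows of 250 bases, GGGCGG in 21 and 32.9%, and TATAAA in 5 and 12.97%. These are matches of letters and were not tested against any level.

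Other types followed in part. Of the 16 members that reached the mean level in fibroblast-like cells, 9 were at least 2-fold lower in AS than in untreated, where 5.87% of 2540 genes were, and 1 was at least 2-fold higher, where 3.74% were. The median log2 ratio was -1.06 over these members and -0.008 over all genes. Col4a5 and Col8a1 reached the mean through 1 library alone, so a difference in them was built into the choice. With cells of at least 500 UMIs and up to 20% mitochondrial UMIs kept, 5 members in place of 10 were at least 2-fold apart. The share of all genes past 2-fold under that filter is not given. The type VI chains, which assemble together into beaded filaments, differed in parallel. Col6a1 stood at 706, 294, 455 and 237 CPM, Col6a2 at 890, 365, 552 and 251 CPM, and Col6a3 at 331, 161, 217 and 89.5 CPM. Each was 2.06-fold to 2.44-fold lower in AS than in untreated and within 2-fold of AS in both MTZ libraries. The first difference was not stable: Col6a1 and Col6a2 stayed 2-fold lower in 6 of 9 settings and Col6a3 in 1, and without cells with Prg4 or Cxcl13 the 3 log2 ratios were -0.58, -0.41 and -0.17.

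Col8a1, a chain of the short-chain type VIII collagen (chr16:57624256-57754737), ran opposite to the main fibrillar chains for AS to untreated and MTZ-treated to AS. Like them, Col8a1 was lower in MTZ-preventive than in AS. Its level in fibroblast-like cells was 33.9, 206, 86.4 and 28.7 CPM, from 134, 116, 376 and 213 UMIs. AS stood above all other libraries, 6.06-fold higher than untreated (log2 2.60, limits 2.23 to 2.97), and MTZ-treated and MTZ-preventive were 2.38-fold and 7.16-fold lower than AS. Drawn shares of cells with Col8a1 were 2.61%, 14.5%, 5.79% and 2.99%. In AS the neutrophil-like cells had it in 1.79% of cells and at 11.02 CPM, well below its fibroblast-like cells. In the other 3 libraries Col8a1 was highest in endothelial-like cells, at 82.6, 113 and 44.1 CPM.

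Among fibril-associated collagens, Col14a1, which binds fibrils in the adventitia (chr15:55307644-55520803), was at 696, 670, 925 and 362 CPM in fibroblast-like cells. AS and untreated did not differ beyond counting error (log2 -0.05, limits -0.21 to 0.10), unlike the fibrils it binds. Over 9 settings this log2 ratio ran from -0.15 to 0.74 for Col14a1, so it was not stably level. For Col1a1 it ran from -2.11 to -1.16. Col12a1 was at 86.1, 113, 89.0 and 51.2 CPM and Col16a1 at 124, 58.5, 91.3 and 40.3 CPM. Col15a1, which bridges basement membrane and fibrils, was at 279, 101, 86.4 and 32.4 CPM. It was 2.76-fold lower in AS than in untreated and 3.12-fold lower in MTZ-preventive than in AS.

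Against AS, none of the 16 members was at least 2-fold higher in MTZ-treated, where 2.09% of all genes were, and 3 were at least 2-fold lower, where 2.64% were. These were Col8a1 and both main type IV chains. AS neutrophil-like cells held Col4a1 at 198 and Col4a2 at 160 CPM, and the part of this background in the AS values was not tested. In MTZ-preventive none was at least 2-fold higher (2.99% of all genes) and 7 were at least 2-fold lower (1.97% of all genes), namely Col1a1, Col3a1, Col5a1, Col5a2, Col8a1, Col12a1 and Col15a1. Col8a1 reached the mean through AS alone, so its place among the 3 and among the 7 was built into the choice. The members' median log2 ratios were 0.45 and -0.88, beside 0.05 and -0.01 over all genes.

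**Figure D4:**
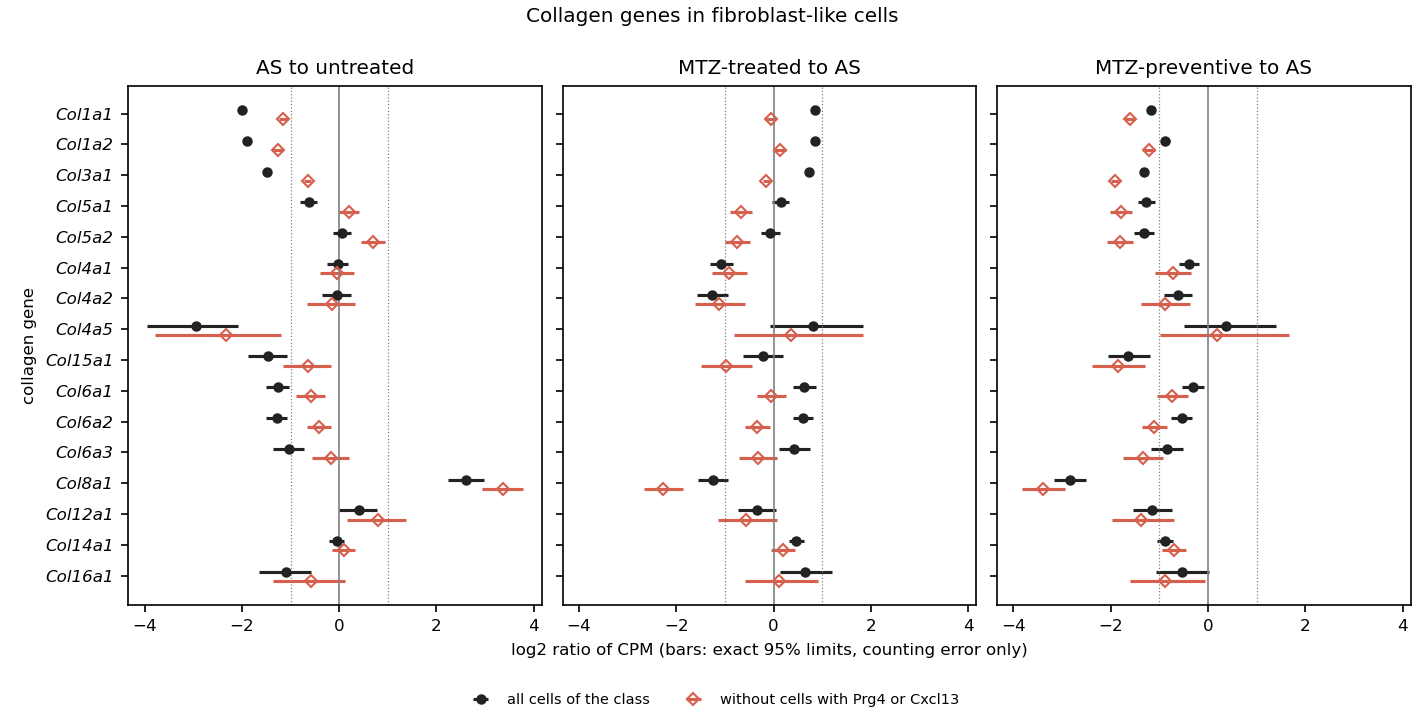
Log2 ratios of 16 collagen genes in fibroblast-like cells for the 3 comparisons, with exact 95% limits for counting; black points use all cells, open red diamonds leave out cells with Prg4 or Cxcl13, and dotted lines mark 2-fold. Col1a1 lies at -1.99, 0.84 and -1.18 and Col8a1 at 2.60, -1.25 and -2.84 in the 3 panels.

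Cells with Prg4 or Cxcl13 above its mean share, genes of a synovial or mesothelial lining and of lymphoid stroma, made up 2.20%, 56.9%, 25.5% and 57.9% of the fibroblast-like class. The same share was 0.662%, 13.2%, 2.88% and 15.6% in endothelial-like cells, 0.453%, 23.7%, 2.996% and 24.4% in smooth muscle-like cells and 26.8% in AS neutrophil-like cells, and the part of this background in the shares of AS and MTZ-preventive was not tested. Those cells held 18572, 5739, 17538 and 3631 CPM of fibrillar collagen, and the other fibroblast-like cells held 32033, 17293, 16065 and 5521 CPM. Without them, fibrillar collagen had a log2 ratio of -0.89 for AS to untreated, with -0.11 for MTZ-treated and -1.65 for MTZ-preventive against AS. AS thus stayed below untreated and above MTZ-preventive, while the excess of MTZ-treated over AS was no longer present. In these cells 3 of 17 members were at least 2-fold lower in AS than in untreated (6.72% of 2590 genes) and 1 was at least 2-fold higher (4.75%), namely Col8a1, which was 3.36 above untreated on the log2 scale. Against AS, 2 members were at least 2-fold lower in MTZ-treated (3.05% of genes) and 10 in MTZ-preventive (4.13%), and none was at least 2-fold higher in either (3.82% and 6.18%). In this set too, Col8a1 reached the mean through AS alone, and Col4a5, among those lower in AS, through untreated alone. Their differences were thus built into the choice, and Col8a1 was among the lower members in both MTZ libraries.

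Called doublets bore on the MTZ-preventive value. They made up 6.94%, 2%, 6.74% and 17.7% of fibroblast-like cells before removal. The number called per library was fixed in advance from its cell count, at a rate that rose with that count. It was 1218 of 12339, 39 of 2199, 416 of 7212 and 2130 of 16316 filtered cells. A larger share was thus removed from larger libraries by construction, and these shares are not read as a property of the libraries. In MTZ-preventive the called doublets of the class held 12782 CPM of fibrillar collagen, against 4419 CPM in its other cells. The class was gated anew with doublets present. With doublets kept, fibrillar collagen stood at 30065, 10036, 16789 and 7358 CPM, MTZ-preventive lay 0.45 below AS on the log2 scale (-0.45), and 2 members in place of 7 were at least 2-fold apart. The share of all genes past 2-fold with doublets kept is not given. Whether the called doublets were true doublets was not tested.

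The basement membrane collagens had another distribution. Col4a1 and Col4a2, the chains of the common type IV network, lie head to head on opposite strands, and their annotated spans (chr8:11198423-11312889 and chr8:11312805-11449287) overlap at the 5′ ends. In endothelial-like cells Col4a1 stood at 542, 703, 269 and 317 CPM and Col4a2 at 311, 405, 137 and 174 CPM. AS was the highest library for both. It was 1.30-fold above untreated for each (log2 0.38, limits 0.22 to 0.53 for Col4a1 and 0.18 to 0.58 for Col4a2). With the looser cell filter Col4a2 turned to -0.09, and over the 8 settings the ratio lay between 0.15 and 0.64 for Col4a1 and between -0.09 and 0.60 for Col4a2.

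MTZ-treated was 2.61-fold lower than AS for Col4a1 (log2 -1.39, limits -1.55 to -1.22) and 2.96-fold lower for Col4a2 (-1.57, -1.79 to -1.34). MTZ-preventive was 2.22-fold and 2.32-fold lower than AS. Of the 8 members that reached the mean level in endothelial-like cells, these were the 2 that lay at least 2-fold lower in MTZ-treated than in AS (3.23% of 2911 genes). In MTZ-preventive 4 of 8 lay at least 2-fold lower (1.51% of genes), with Col3a1 and Col5a2 beside the type IV chains. Of these, Col3a1 was below background in AS and is not read as lower, and Col5a2 stood at 99.8 CPM in AS endothelial-like cells against 49.6 CPM in AS neutrophil-like cells. None of the 8 was at least 2-fold higher in either library (1.68% and 2.2%), and none was 2-fold apart between AS and untreated (2.51% of genes higher, 4.47% lower). UMIs of Col4a2 per UMI of Col4a1 stayed at 0.574, 0.576, 0.508 and 0.550, with limits that overlap for all 4 libraries.

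The background of these values differed between libraries. Neutrophil-like cells of AS held 198 CPM of Col4a1 and 160 CPM of Col4a2, whereas B-like and T-like cells of the other 3 libraries, which are other classes, held at most 13.6 and 8.02 CPM. Neutrophil-like cells of MTZ-preventive held 47.1 and 31.4 CPM, from 3 and 2 UMIs. The part of background in the AS level was not tested. Drawn shares of endothelial-like cells with Col4a1 were 27.8%, 42.7%, 20.97% and 24.9%, against 17.9% of AS neutrophil-like cells. Col1a1 and Col3a1 in AS endothelial-like cells were below that background, at 172 and 348 CPM against 314 and 430 CPM in neutrophil-like cells, and were not read as expression or as differences from AS.

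**Figure D5:**
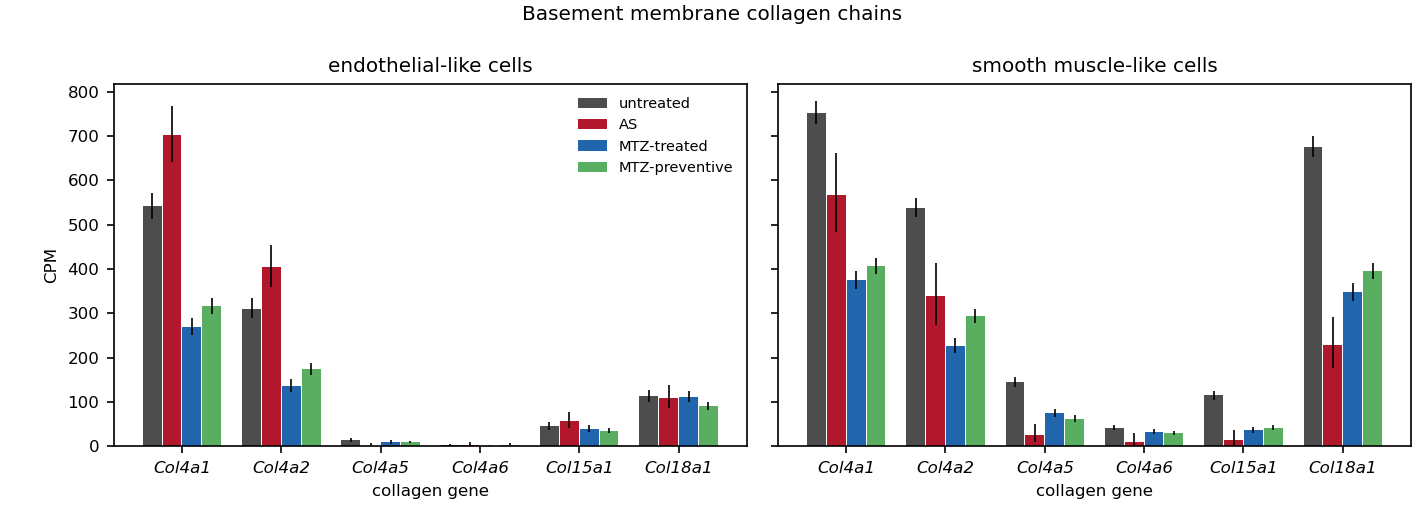
CPM of Col4a1, Col4a2, Col4a5, Col4a6, Col15a1 and Col18a1 in endothelial-like and smooth muscle-like cells of the 4 libraries, as bars from 0 with exact 95% limits for counting. In endothelial-like cells Col4a1 and Col4a2 are highest in AS (703 and 405 CPM), and in smooth muscle-like cells Col18a1 is highest in untreated (676 CPM).

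Col18a1, whose C-terminal fragment is endostatin (chr10:77052178-77166530), was near level in endothelial-like cells at 113, 110, 112 and 90.1 CPM. Over 8 settings its log2 ratio there ran from -0.27 to 0.65 for AS to untreated. For MTZ-preventive to AS it ran from -0.84 to 0.04. In smooth muscle-like cells Col18a1 was at 676, 229, 347 and 395 CPM, 2.95-fold lower in AS than in untreated (log2 -1.56, limits -1.94 to -1.21). Smooth muscle-like cells also held Col4a1 at 753, 568, 375 and 406 CPM and Col4a2 at 538, 339, 227 and 294 CPM. The X-linked Col4a5 was at 145, 24.7, 74.0 and 62.5 CPM there, and its neighbour Col4a6 at 41.5, 10.6, 33.1 and 29.7 CPM. In fibroblast-like cells Col4a1 was at 359, 353, 167 and 268 CPM, level between untreated and AS and 2.11-fold lower in MTZ-treated than in AS. Over 9 settings the log2 ratio of AS to untreated ran from -0.05 to 0.84. The difference of MTZ-treated from AS stayed past 2-fold in 7 of 9 settings. AS neutrophil-like cells held 198 CPM of Col4a1, and the part of this background in the AS value was not tested.

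Col4a3 and Col4a4, chains of the kidney and lung form of type IV, stood highest in fibroblast-like cells in the library labelled untreated. Col4a4 stood at 77.2, 1.77, 13.1 and 6.20 CPM and Col4a3 at 40.3, 1.77, 2.53 and 2.43 CPM there. Both AS values rest on 1 UMI each.

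In smooth muscle-like cells untreated stood above the 3 other libraries. Fibrillar collagens summed to 4136, 1693, 2139 and 1536 CPM, and AS was lower than untreated by a log2 ratio of -1.29 (limits -1.42 to -1.16), which was -0.53 with markers counted on any UMI and -0.69 with the looser cell filter. Of 14 members that reached the mean, 9 were at least 2-fold lower in AS (7.69% of 2654 genes) and none higher (3.73%). Col3a1 was at 1538, 483, 733 and 487 CPM and Col6a1 at 253, 52.9, 101 and 112 CPM. The AS class held 139 cells. Its levels of Col3a1 and of Col6a3 (35.3 CPM) were near those of AS neutrophil-like cells (430 and 44.1 CPM), so these were not told apart from background, whereas Col18a1 was at 229 against 49.6 CPM. Col15a1 reached the mean through untreated alone.

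Against AS, 2 of the 14 members were at least 2-fold higher in MTZ-treated (3.84% of genes) and 5 in MTZ-preventive (5.31%), and none was at least 2-fold lower in either (3.24% and 1.66%). The 5 were Col4a5, the 3 main type VI chains and Col15a1, whose AS values rest on 4 to 22 UMIs. Col6a1, Col6a2 and Col6a3 stayed at least 2-fold higher in 4, 3 and 3 of 8 settings, and Col6a3 turned to -0.23 with the looser cell filter. The fibrillar sum differed little, with log2 ratios of 0.34 for MTZ-treated and -0.14 for MTZ-preventive, and both changed sign under some other ways of gating or weighting the cells. AS neutrophil-like cells held Col1a1 at 314, Col1a2 at 226 and Col3a1 at 430 CPM. The part of this background in the AS sum was not tested.

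Proteins that make collagen did not all follow it. Of 13 chain modification and folding genes at the mean level in fibroblast-like cells, 1 was at least 2-fold lower in AS than in untreated, a share near the 5.87% of all genes, and none was higher. It was Serpinh1, the collagen chaperone HSP47, at 2312, 843, 1387 and 835 CPM, which matched fibrillar collagen in the first 3 libraries but was the same in MTZ-preventive as in AS (log2 -0.01, limits -0.15 to 0.12). P4hb, a subunit of the prolyl hydroxylase, was flat at 549, 537, 510 and 528 CPM. Among 7 processing and crosslinking genes, Adamts2 and Loxl1 were at least 2-fold lower in AS than in untreated. Lox was at least 2-fold lower in MTZ-treated than in AS, and Loxl2 in MTZ-preventive than in AS, where 2.64% and 1.97% of all genes were.

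Of 6 proteoglycans that bind fibrils, Fmod, Ogn and Podn were at least 2-fold lower in AS than in untreated and at least 2-fold higher in MTZ-preventive than in AS, opposite to the fibrillar chains in the second comparison. Those shares were 5.87% and 2.99% over all genes. Fmod, fibromodulin, stood at 224, 8.86, 17.7 and 27.9 CPM and reached the mean through untreated alone, and its AS value rests on 5 UMIs. Among 13 other matrix genes, Eln, the elastin gene, was at 1678, 257, 137 and 80.0 CPM and Sparc, a collagen-binding protein, at 16750, 4554, 8269 and 2794 CPM. Thbs1, Vcan and Ltbp2 were at least 2-fold higher in AS than in untreated, where 3.74% of all genes were. In endothelial-like cells 5 laminin, nidogen, perlecan and other basement membrane partner genes reached the mean level. None was 2-fold apart in any comparison, where 6.97%, 4.91% and 3.71% of all genes were, so this count is near that share. Lamb1, a laminin chain under the mean level and singled out after its values were seen, was highest in AS like Col4a1 and Col4a2. It stood at 36.7, 83.9, 28.9 and 36.9 CPM.

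Several members belonged to minor classes. Schwann-like cells (228, 20 and 105 cells in untreated, MTZ-treated and MTZ-preventive, 2 in AS) held Col28a1 at 117, 32.7 and 54.1 CPM and Col27a1 at 216, 87.2 and 96.2 CPM. The MTZ-treated values rest on 3 UMIs of Col28a1 and 8 of Col27a1. Col28a1 is known from the basement membranes of peripheral nerve. Col5a3 was at 201, 305 and 102 CPM in Schwann-like cells, above its level in fibroblast-like cells of the same libraries, and Col11a1 reached 60.1 CPM in MTZ-preventive. The Col5a3 value of MTZ-treated came from 28 UMIs in 20% of its 20 cells. Lymphatic endothelial-like cells held Col18a1 at 335, 87.5 and 309 CPM and Col23a1, a transmembrane collagen, at 77.3, 49.2 and 43.0 CPM in the same 3 libraries.

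Col2a1, the fibrillar chain of cartilage (chr15:97975602-98004724), was confined to few cells. It had 2, 110, 269 and 48 UMIs in 2, 18, 16 and 18 cells. The 5 highest cells held 88.2% of its UMIs in AS and 94.4% in MTZ-treated. In MTZ-treated, 7 osteochondrogenic-like cells held 217 of the 269 UMIs together with 39 of Acan and 30 of Sox9, the cartilage proteoglycan and the master regulator of cartilage. In AS, 4 such cells held 29 of the 110 UMIs and 67 lay in cells of no class. The other 2 libraries had no osteochondrogenic-like cell.

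The 20 remaining members were low in every class of at least 50 cells, with 47.6 CPM of Col4a6 as the highest value. The few osteochondrogenic-like cells lie outside that statement. They held 5 UMIs of Col11a2 among 12709 in AS and 30 among 57015 in MTZ-treated. A UMI was found for 44, 39, 43 and 42 of the 44 members over all cells. The 5 without a UMI in AS were Col9a1, Col9a2, Col10a1, Col25a1 and Col26a1, which at the depth of that library allows up to 0.793 CPM.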

How the data were processed

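Per the labels, the submitters' processing notes name Cell Ranger and STAR and genome build mm10; per the file headers, Cell Ranger 5.0.0 made the matrices. The authors deposited UMI counts per gene and barcode for 4 5′ gene expression libraries, and these counts were used as deposited. The receptor contig files were not used here, and cell classes were rebuilt from marker genes. Cells with more than 200 genes, more than 1000 UMIs, complexity above 0.7, under 10% mitochondrial and under 5% hemoglobin UMIs were kept. Doublets were called per library against simulated pairs at 0.8% per 1000 cells and removed. A cell joined 1 of 13 classes when at least 3 of its markers lay above their mean share over the 4 libraries, leading every other class by 10 percentage points of markers. Counts were summed per class and library and divided by the class total (CPM). Limits are exact Poisson, Clopper-Pearson and conditional binomial, at 95%, and a count of 0 was bounded at 3 UMIs. Genes with a mean of at least 50 CPM in a class entered counts of 2-fold differences. Every collagen gene was a member; values are given for those at a mean of 50 CPM in the 3 main classes or at 50 CPM in 1 library of a class of at least 50 cells. Members, marker and pathway lists were chosen with earlier results of these data known. The calculations were tested on simulated data. Alternatives were TMM factors from edgeR 4.0.16 (R 4.3.3), another denominator, cell weights, cell filters, gates, doublets kept and no filter on the mean. Values were computed in Python 3.11.15 with matplotlib 3.10.9, pandas 2.3.3, numpy 2.4.6, scikit-learn 1.9.0 and scipy 1.17.1. Promoters came from RefSeq (GRCm38.p6), which held 35 of the 44 members.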

Additional observations from a re-analysis of the deposited data

Results flagged for a closer look

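Col15a1 differed in direction between 2 cell classes for the same pair of libraries. MTZ-preventive against AS gave a log2 ratio of -1.64 in fibroblast-like cells, from 57 UMIs in AS, and one of 1.57 in smooth muscle-like cells, from 4 UMIs in AS. The difference between the classes was not tested.

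Col2a1 was found mostly outside the 3 classes compared. Its UMIs in cells of every class came to 29.1 CPM in AS and 18.3 CPM in MTZ-treated, against 0.07 CPM in the library labelled untreated. In AS, 29 of its 110 UMIs lay in osteochondrogenic-like cells and 67 in cells of no class. In MTZ-treated these were 217 and 40 of 269. Few cells carried Col2a1 in either library.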

How the results depend on the processing

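No paired analysis was possible because each group has 1 gene expression library, and leaving out a library leaves no comparison. Ratios below are log2, in the order AS to untreated, MTZ-treated to AS and MTZ-preventive to AS, and the cause of each shift was not tested. For fibrillar collagens in fibroblast-like cells (-1.67, 0.73, -1.17), 1 more marker gave -1.72 and -1.11 for the first and last, TMM factors -1.60 and 0.84 for the first 2, doublets kept -1.58 and -0.45 for the first and last, the looser cell filter -1.20, 0.38 and -1.34, the mean over cells -1.37, 0.38 and -1.25, and a total without mitochondrial, ribosomal protein and hemoglobin genes -1.62 and -1.12 for the first and last. For fibrillar collagens in smooth muscle-like cells (-1.29, 0.34, -0.14), 1 more marker gave -1.54, 0.57 and 0.10, the looser filter -0.69 and -0.86 and the mean over cells -1.02 and -0.62 for the first and last, so the MTZ comparisons had no stable direction. For basement membrane collagens in endothelial-like cells (0.25, -1.17, -1.02), doublets kept gave 0.085, -1.01 and -0.88, the looser filter 0.061 and -1.30 and the mean over cells 0.50 and -1.31 for the first 2. The 10, 3 and 7 members at least 2-fold apart in fibroblast-like cells became 30, 18 and 18 with no filter on the mean. Those counts take in members with few or no UMIs in AS, and no share of all genes stands beside them. They are not read as a result about collagens. With the filter on the mean, the first count was 5 with the looser cell filter and 6 with the mean over cells, and the last was 2 with doublets kept. Shares of all genes are not given for these settings either. A further 3 alternatives were chosen after seeing the data. Markers counted on any UMI gave -1.77, 0.80 and -1.11 in fibroblast-like cells, -0.53, -0.29 and -0.92 in smooth muscle-like cells and -1.30 for MTZ-treated to AS in endothelial-like cells. No lead over other classes gave 0.81 for MTZ-treated to AS in fibroblast-like cells and -0.72, -0.0052 and -0.71 in smooth muscle-like cells. Leaving out cells with Prg4 or Cxcl13 gave -0.89, -0.11 and -1.65, with 4 of 17 members at least 2-fold apart in the first comparison (11.5% of 2590 genes). Reversed under the looser filter were Col5a1 in smooth muscle-like cells, AS to untreated (0.015), and Col6a3 there, MTZ-preventive to AS (-0.23). Of 114 ratios of single genes, 87 to 112 kept their sign over the 8 settings that used all cells of a class, and 28 to 41 of the 42 past 2-fold stayed past it. Col4a1 and Col4a2 in endothelial-like cells stayed at least 2-fold lower in both MTZ libraries under all 8, and Col8a1 in fibroblast-like cells stayed past 2-fold in all 3 comparisons under 9 of 9. The depth of AS, with 139 smooth muscle-like cells, limits members under about 50 CPM there.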
